A study of Mus musculus with 6 samples.

Results

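The genes of the unfolded protein response and of the transcription factor Atf4 were described in tumoroids with and without the kinase IKKa. The 33 genes, a list drawn up by pathway role, were taken by symbol from GENCODE gene models of GRCm38, and all 33 were found among the 49585 gene identifiers of the count tables. They were kept in 3 groups: 12 genes of the Atf4 amino acid arm, 5 genes of stress sensors and Xbp1, and 16 genes of the folding and degradation arm of the endoplasmic reticulum (ER). RNA was sequenced from 3 knock-out and 3 wild-type libraries of C57BL/6 mouse intestinal adenoma cells grown in Matrigel as tumoroids. All 6 libraries came from cells with the genotype APC min/+; Villin-Cre, so 1 mutated Apc copy and a Cre recombinase driven by an intestinal epithelial promoter were shared by both groups. The knock-out cells were IKKa FL/FL, in which that Cre cuts out the floxed stretch of the gene, and the wild-type cells were IKKa +/+. The medium of both groups held a ROCK inhibitor, Noggin, R-spondin, EGF and basic FGF. The labels used here give no age or number of mice, and the libraries of a genotype are called biological replicates without a named mouse or culture. The p-values therefore speak only of how far these libraries vary, and that variation may be technical.

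The unfolded protein response adjusts a cell's folding capacity to its load of secretory and membrane proteins. Misfolded protein in the ER lumen activates the sensors PERK (encoded by Eif2ak3), IRE1 (Ern1 and, in mucosal epithelium, Ern2) and ATF6. IRE1 splices the Xbp1 message into a form that encodes an active transcription factor, and ATF6 is cut to release one, and both act on genes of chaperones, disulfide isomerases and ER-associated degradation. PERK phosphorylates the initiation factor eIF2, as do the sensors of amino acid shortage, heme shortage and viral RNA, which lowers general translation and raises that of Atf4. Atf4 acts on genes of amino acid synthesis and uptake, tRNA charging and stress-induced death. In the gut the response is best known from secretory cells such as goblet and Paneth cells. Spliced Xbp1 and the translation of Atf4 cannot be read from counts per gene.

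Values are CPM, a gene's counts divided by the library's total after TMM scaling and put on the usual per-library scale, and libraries held 20749747 to 31875723 counts. Chuk, the gene of IKKa (ENSMUSG00000025199, chromosome 19, 44073335 to 44107480), had 28.9, 24.4 and 34.9 CPM in knock-out replicates 1 to 3 and 100.7, 106 and 95.8 CPM in the wild type. Its log2 fold change was -1.77 (SE 0.12, adjusted p = 8.6e-08). Chuk counts thus remained in the knock-out, and their source was not tested. Knock-out replicate 2 stood apart, with a chi-square of counts per degree of freedom of 39.4 against replicate 1, where replicates 1 and 3 had 5.80 between them. Sex-linked transcripts separated the genotypes as well, with 6 Xist counts in the knock-out against 95406 in the wild type, and 7164 counts of the Y-linked Eif2s3y in the knock-out against 0 in the wild type, so genotype and sex cannot be told apart. Mitochondrial transcripts took 2.15% to 3.46% of knock-out counts and 6.18% to 7.58% of wild-type counts. Of 9 tested markers of intestinal epithelium, 3 rose in the knock-out (Krt8, Krt18 and Krt19, the last 2.69-fold) and 5 fell. Those that fell were Epcam (2.22-fold), Vil1 (1.85-fold), Cdx2 (9.38-fold), the stem cell receptor Lgr5 (41.3-fold) and Cdx1, which had no count there. Cdh1 did not pass the test, at 1088 CPM against 1230 (adjusted p = 0.077).

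The promoters of both arms carry response elements that can be seen in their sequence, and these are shown because such elements are known sites of action of Atf6, Xbp1 and Atf4. RefSeq promoter windows of GRCm38.p6, from 250 bases before to 50 bases after a start, were at hand for 29 of the 33 genes and were searched on both strands. The ER stress element (ERSE) was searched as CCAAT, then 9 bases of any kind, then CCACG. It was found in 6 of 14 windows of the ER arm (42.9%), in 0 of 12 of the Atf4 arm and in 37 of 27025 genes with a window (0.137%). The second form, ERSE-II, was searched as ATTGG, then 1 base of any kind, then CCACG. It was found in Herpud1 alone among these genes and in 0.044% of genes with a window. The C/EBP-ATF element bound by Atf4 was searched as TGATGNAA. It was found in 3 of 12 windows of the Atf4 arm (Asns, Chac1 and Trib3), in 1 of 14 of the ER arm (Herpud1) and in 4.51% of genes with a window. The Xbp1 element TGACGTGG was in 0 of these 29 genes and in 0.714% of genes with a window. ERSE and ERSE-II share the letters CCACG, and a match is a description of letters, not of binding. Each stretch below reads 5′ to 3′ on the gene's own strand, lies upstream of the start and has the matched element in capitals, which reads as searched or as its reverse complement.

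Asns, chr6:7693215-7693242, minus strand: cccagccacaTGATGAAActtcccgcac
Chac1, chr2:119351039-119351066, plus strand: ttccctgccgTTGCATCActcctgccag
Herpud1, chr8:94386307-94386397, plus strand: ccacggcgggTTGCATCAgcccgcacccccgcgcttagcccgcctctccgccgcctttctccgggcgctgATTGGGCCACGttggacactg
Calr, chr8:84847065-84847103, minus strand: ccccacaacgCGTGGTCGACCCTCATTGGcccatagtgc
Canx, chr11:50325790-50325828, minus strand: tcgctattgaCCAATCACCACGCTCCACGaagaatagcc
Creld2, chr15:88819510-88819548, plus strand: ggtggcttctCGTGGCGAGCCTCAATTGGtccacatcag
Derl3, chr10:75893232-75893270, plus strand: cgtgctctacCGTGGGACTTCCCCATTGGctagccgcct
Pdia6, chr12:17266481-17266519, plus strand: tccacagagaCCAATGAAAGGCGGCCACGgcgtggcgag
Syvn1, chr19:6046522-6046560, plus strand: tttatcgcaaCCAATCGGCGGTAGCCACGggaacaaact

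The Herpud1 stretch is the only one that held both an Atf4-type element, 112 bases before the start, and an ER stress element, 52 bases before it. The element of Trib3 began 15 bases after its start and is not shown.

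More genes of the Atf4 arm fell than rose in the knock-out, and more genes of the ER arm rose than fell. The difference between the arms was not tested. Further targets of Atf4 outside the arm leaned the other way, with 14 of 26 tested higher and 7 lower. In the Atf4 arm 6 of 12 genes fell, among them the asparagine, serine and one-carbon enzymes Asns, Psat1, Shmt2 and Mthfd2 and the factors Atf4 and Atf5, and 3 rose, namely Phgdh, Ppp1r15a and Ddit3. In the ER arm 6 of 16 genes rose, led by Wfs1, Pdia4 and Pdia3, and Herpud1 and Sdf2l1 fell. Of the 5 sensor genes, Xbp1 and Ern1 fell and Atf6 rose. All 33 genes passed the filter on low counts. Of these, 20 passed an adjusted p of 0.05, 10 higher and 10 lower, where 57.4% of the 13759 genes tested passed, 30.4% higher and 27.0% lower. The share of the 33 genes called was thus near that of all genes. By group, 9 of 12 genes of the Atf4 arm, 3 of 5 sensors and 8 of 16 genes of the ER arm passed. The ER arm was thus below the share of all genes, and its 6 of 16 that rose were near the 30.4%. The median log2 fold change was -0.43 over the Atf4 arm, -0.16 over the sensors and 0.16 over the ER arm, against 0.00 over all genes tested. Knock-out and wild-type libraries did not overlap for 9 of 12, 3 of 5 and 9 of 16 genes, beside 63.1% of all genes. In bulk RNA, fewer cells of a type and less RNA per cell cannot be told apart.

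**Figure D1:**
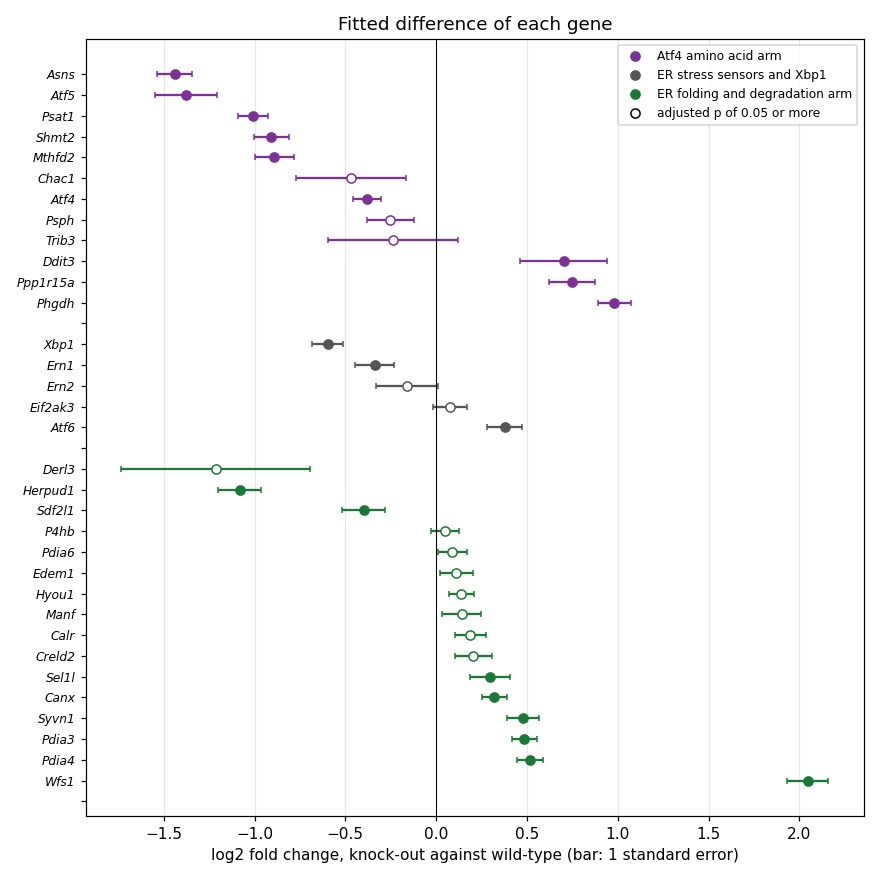
Fitted log2 fold change of each of the 33 genes, knock-out against wild-type (x axis; bars are 1 standard error), ordered within the Atf4 arm, the sensors and the ER arm. Filled points passed an adjusted p of 0.05. The fitted values ran from -1.44 (Asns) to 0.98 (Phgdh) in the Atf4 arm, and Wfs1 stood at 2.05 in the ER arm.

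Atf4 itself, the factor at the head of its arm (ENSMUSG00000042406, chromosome 15, 80255184 to 80257541), had 192, 215 and 194.5 CPM in knock-out replicates 1 to 3 and 248, 259 and 278 CPM in the wild type. The groups did not overlap, with all knock-out libraries lower. The mean was 201 ± 12.4 CPM against 262 ± 15.1 (SD, n = 3 each), a 1.30-fold fall (log2 fold change -0.38, SE 0.08, adjusted p = 1.1e-03). Atf5, a related factor linked to mitochondrial stress and itself a target of the arm, had 10.3, 10.4 and 6.98 CPM against 23.9, 20.4 and 27.1 CPM. It fell 2.60-fold (log2 fold change -1.38, SE 0.17, adjusted p = 2.5e-05), and the groups did not overlap. Atf5 shares 82 exon bases (4.11%) with Nup62 on the opposite strand, which had 24742 counts to its 2681, and whether counting used strand is not stated in the labels.

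In the stress-death branch of the arm, Ddit3 rose and Trib3 and Chac1 did not pass the test, all 3 at low counts. Ddit3, which encodes the pro-death factor CHOP, had 3.63, 3.97 and 4.23 CPM in the knock-out against 2.08, 2.57 and 2.67 CPM in the wild type. It rose 1.63-fold (log2 fold change 0.70, SE 0.24, adjusted p = 0.025), without overlap. This call rests on 539 counts over 6 libraries, was lost without knock-out replicate 3 (adjusted p = 0.084) or wild-type replicate 1 (adjusted p = 0.10), and 68 exon bases of Ddit3 lie opposite Mars, which had 28626 counts. Trib3, a pseudokinase that Atf4 and CHOP induce, had 1.49, 1.57 and 1.49 CPM against 1.21, 1.502 and 2.64 CPM, with overlapping groups (log2 fold change -0.24, SE 0.36, adjusted p = 0.60). Without wild-type replicate 3 its fitted difference turned to 0.19. Chac1, which breaks down glutathione, had 2.15, 3.82 and 1.87 CPM against 3.02, 3.54 and 4.12 CPM (log2 fold change -0.47, SE 0.30, adjusted p = 0.21). Its knock-out replicate 2 lay among the wild-type libraries, and without that library Chac1 passed the test at -0.84 (adjusted p = 0.024).

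Ppp1r15a, also known as GADD34, is the phosphatase subunit that reverses eIF2 phosphorylation. It had 37.4, 31.65 and 41.5 CPM in the knock-out against 20.67, 20.74 and 24.5 CPM in the wild type. It rose 1.68-fold (log2 fold change 0.75, SE 0.13, adjusted p = 3.1e-04), without overlap between the groups.

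Among the amino acid enzymes, Asns fell most. Asns, asparagine synthetase (chromosome 6, 7675169 to 7693254), had 57.3, 69.5 and 54.7 CPM in the knock-out and 163, 160 and 169 CPM in the wild type. The wild-type libraries were close to each other and all above 150 CPM, and every knock-out library was below 70 CPM. The fall was 2.71-fold (log2 fold change -1.44, SE 0.10, adjusted p = 8.2e-08). Relative to Atf4 in the same library and per kilobase of exon, the Asns level was 0.259 ± 0.0184 of that of Atf4 in the knock-out against 0.541 ± 0.0213 in the wild type, a ratio that no scaling between libraries can alter.

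The enzymes that make serine and pass it to one-carbon metabolism split at the first step. Phgdh, which commits 3-phosphoglycerate to serine (chromosome 3, 98313170 to 98339990), had 111, 118 and 117 CPM in the knock-out against 55.5, 54.1 and 65.4 CPM in the wild type. It rose 1.97-fold (log2 fold change 0.98, SE 0.09, adjusted p = 1.7e-06). Psat1, the aminotransferase of the second step (chromosome 19, 15904678 to 15947337), had 166, 179 and 157 CPM against 323, 322 and 367 CPM. It fell 2.01-fold (log2 fold change -1.01, SE 0.08, adjusted p = 5.3e-07), and neither gene had overlapping groups.

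Psph, the phosphatase of the last step, had 21.2, 27.1 and 25.9 CPM against 26.1, 29.2 and 32.96 CPM and did not pass (log2 fold change -0.25, SE 0.13, adjusted p = 0.12). Knock-out replicate 2 overlapped the wild type, and without it Psph had an adjusted p of 0.024 at -0.35. Psph lies on chromosome 5, where the median of 685 genes with at least 5 CPM was 0.40 against -0.03 on the other autosomes, and 452 of its exon bases (10.4%) lie opposite Cct6a, which had 104856 counts to its 4464. The part of either in the Psph value was not tested.

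Both mitochondrial enzymes downstream of serine fell. Shmt2, which moves the serine carbon to folate, had 141, 165 and 132 CPM in the knock-out and 261, 262 and 298 CPM in the wild type (1.875-fold, log2 fold change -0.91, SE 0.10, adjusted p = 5.5e-06). Mthfd2, which oxidises that folate unit, had 38.5, 41.6 and 35.8 CPM against 62.6, 80.5 and 72.0 CPM (1.85-fold, log2 fold change -0.89, SE 0.11, adjusted p = 2.0e-05). In neither gene did the groups overlap.

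Within a library and per kilobase of exon, the level of Phgdh relative to Psat1 was 1.139, 1.125 and 1.275 in the knock-out replicates and 0.294, 0.288 and 0.305 in the wild type. On this per-length scale, Phgdh was thus above Psat1 in every knock-out library and below it in every wild-type library. The order in the knock-out rests on the union exon lengths used, 2486 bases for Phgdh and 4254 for Psat1. In CPM, Phgdh was below Psat1 in every library. The fold difference of this ratio between the genotypes does not depend on these lengths. Of 4 such ratios computed, those of Phgdh to Shmt2 were 0.997 ± 0.111 and 0.2665 ± 0.0081, and those of Pdia3 to Herpud1 41.2 ± 5.64 and 13.8 ± 0.554. With 3 libraries against 3, the exact permutation test cannot go below p = 0.1 (two-sided), which it gave for all 4 ratios. The ratios of Phgdh to Psat1, Phgdh to Shmt2 and Pdia3 to Herpud1 each set a gene that rose over one that fell. Their separation therefore followed from those calls, and the test adds nothing to them.

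**Figure D2:**
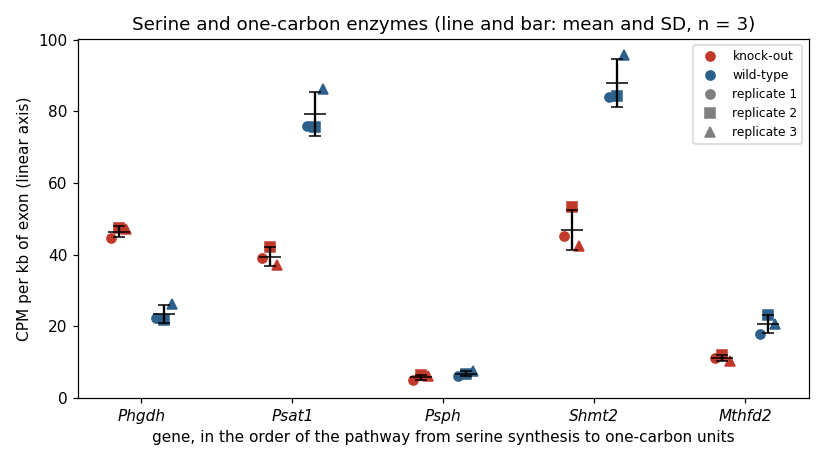
Level of 5 serine and one-carbon enzymes in CPM per kilobase of exon (y axis, linear from 0), in pathway order, with 1 point per library and the mean and SD of 3. Phgdh stood at 46.4 in the knock-out against 23.5 in the wild type, and Psat1 at 39.4 and 79.35.

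Of the sensors, the IRE1 gene Ern1 and Xbp1 fell, the ATF6 gene rose, and the PERK gene and Ern2 did not pass the test. Eif2ak3 had 63.7, 52.7 and 56.7 CPM in the knock-out against 55.1, 56.1 and 53.0 CPM in the wild type, with overlapping groups (log2 fold change 0.08, SE 0.09, adjusted p = 0.50). Ern1 had 39.8, 34.6 and 41.4 CPM against 54.0, 46.7 and 45.6 CPM (log2 fold change -0.34, SE 0.11, adjusted p = 0.017). The gap between its groups was narrow, and leaving out wild-type replicate 1 ended the call (adjusted p = 0.091).

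Xbp1, the IRE1 substrate (chromosome 11, 5520659 to 5525893), had 91.2, 86.9 and 81.0 CPM in the knock-out and 131, 121 and 140 CPM in the wild type. It fell 1.51-fold with no overlap (log2 fold change -0.60, SE 0.08, adjusted p = 7.1e-05). Atf6 had 122, 97.6 and 119 CPM against 90.8, 81.0 and 88.6 CPM and rose 1.30-fold (log2 fold change 0.38, SE 0.10, adjusted p = 5.3e-03).

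Ern2, the IRE1 form of mucus-making epithelium, had 10.3, 8.80 and 7.40 CPM in the knock-out against 9.82, 10.8 and 9.18 CPM in the wild type. The groups overlapped (log2 fold change -0.16, SE 0.17, adjusted p = 0.45). Beside it, all 9 tested goblet cell markers of the 10 listed fell, and their summed level was 44.8 to 78.2 CPM in the knock-out and 1448 to 1486 CPM in the wild type. Most of the wild-type sum was Fcgbp (613 CPM), Tff3 (428 CPM) and Muc13, while the mucin gene Muc2 had 4.31 CPM there. Whether each listed gene, Muc13 among them, is limited to goblet cells was not tested, so the sum is no measure of goblet cells alone. Spdef, Atoh1 and Muc13 had no count in the knock-out, against means of 3.70, 6.93 and 301 CPM in the wild type, and Zg16 had 1 count in all 6 libraries. Spdef, Atoh1 and Muc13 passed the low-count filter only through the wild type and could only be called lower. The goblet gene Agr2, an ER disulfide isomerase relative, had 1.96, 1.76 and 0.710 CPM against 67.1, 68.6 and 69.0 CPM.

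**Figure D3:**
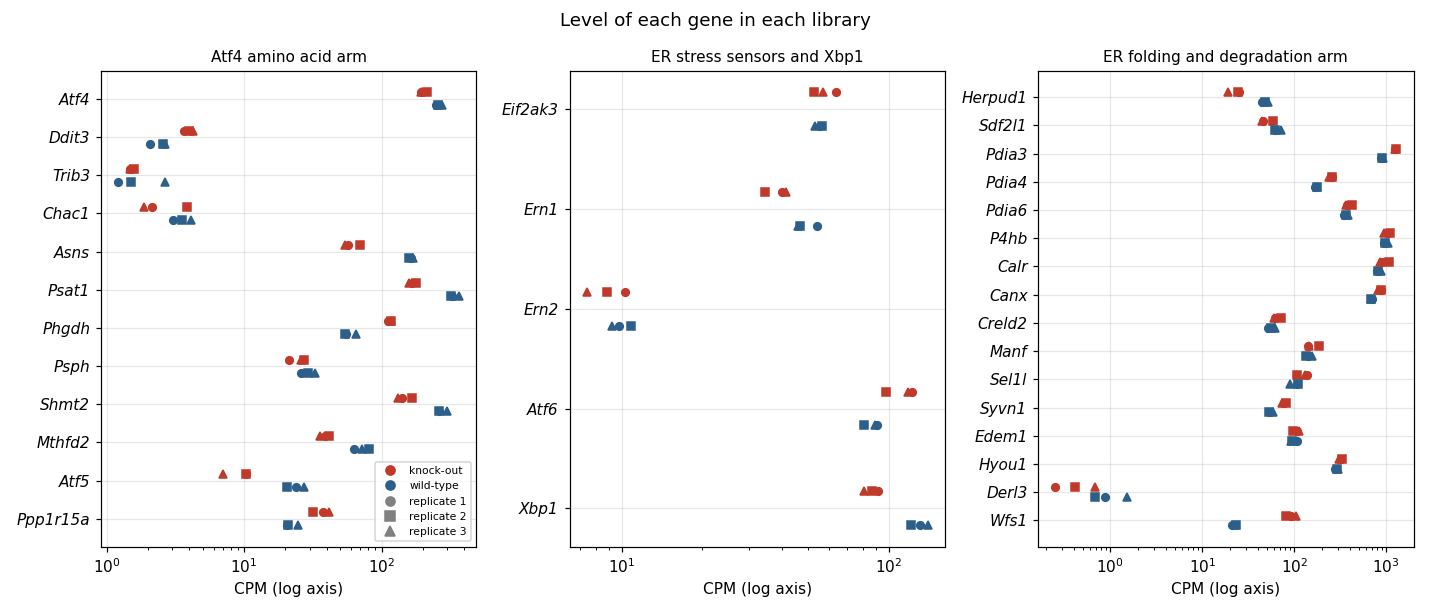
Level of each gene in each library in CPM (x axis, logarithmic), in panels for the Atf4 arm, the sensors and the ER arm, with red points for knock-out and blue for wild-type libraries and symbols for replicate numbers. The groups stand apart in Asns, Psat1 and Phgdh, in Xbp1, and in Herpud1 and Wfs1, and overlap in Trib3, Eif2ak3 and P4hb.

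Of the abundant foldases and lectin chaperones, Pdia3, Pdia4 and Canx rose and Calr, P4hb and Pdia6 did not pass the test. Pdia3, the isomerase that works with calnexin and calreticulin on glycoproteins, had 1229, 1289 and 1228 CPM in the knock-out and 872, 888 and 915 CPM in the wild type. It rose 1.40-fold (log2 fold change 0.49, SE 0.07, adjusted p = 6.7e-05). Pdia4, another isomerase, had 254, 256 and 239 CPM against 168.5, 178.5 and 177.5 CPM (1.43-fold, log2 fold change 0.52, SE 0.07, adjusted p = 5.5e-05). Replicates of both genes lay within a narrow band and the groups were apart.

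Canx, the membrane-bound lectin chaperone calnexin, had 885, 871 and 820 CPM against 695, 682 and 684 CPM and rose 1.249-fold (log2 fold change 0.32, SE 0.07, adjusted p = 1.5e-03). Its soluble counterpart Calr had 904, 1059 and 860 CPM against 799, 804 and 873 CPM, with overlap (log2 fold change 0.19, SE 0.09, adjusted p = 0.086). The isomerases P4hb, at 1028 ± 76.8 CPM against 994 ± 51.9 (adjusted p = 0.63), and Pdia6, at 388 ± 33.6 against 364.5 ± 20.1 (adjusted p = 0.38), did not pass. Per kilobase of exon, Pdia3 stood at 398 and P4hb at 359 in the knock-out, against 284 and 347.5 in the wild type.

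Of the ER degradation genes, Syvn1 and Sel1l rose, Herpud1 fell, and Edem1 and Derl3 did not pass the test. Syvn1, the ubiquitin ligase also known as HRD1, had 76.7, 81.6 and 73.0 CPM in the knock-out against 53.3, 53.25 and 59.3 CPM in the wild type (1.39-fold, log2 fold change 0.48, SE 0.09, adjusted p = 5.2e-04). It shares 91 exon bases with Mrpl49 on the opposite strand, which had 10684 counts to its 11152. Its cofactor Sel1l had 138, 107 and 130 CPM against 107, 109 and 89.2 CPM (log2 fold change 0.30, SE 0.11, adjusted p = 0.034). The Sel1l groups overlapped at knock-out replicate 2, and the call was lost under upper-quartile scaling (adjusted p = 0.067) and without knock-out replicate 1 or 3 or wild-type replicate 1 or 3 (adjusted p = 0.15, 0.098, 0.055 and 0.15).

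Herpud1, a membrane protein of the same ligase complex (ENSMUSG00000031770, chromosome 8, 94386438 to 94395377), had 24.8, 24.5 and 19.2 CPM in the knock-out and 45.1, 48.4 and 51.2 CPM in the wild type. It fell 2.12-fold (log2 fold change -1.08, SE 0.12, adjusted p = 7.6e-06), and the highest knock-out library was below 25 CPM while the lowest wild-type library was above 45 CPM. Edem1, which hands misfolded glycoproteins to degradation, had 106 ± 7.24 CPM against 97.8 ± 8.37 (adjusted p = 0.31). Derl3, a derlin of the same route, was near its limit of detection at 0.253, 0.412 and 0.678 CPM against 0.871, 0.678 and 1.52 CPM. Its groups touched without overlapping (log2 fold change -1.21, SE 0.52, adjusted p = 0.064), on 8 to 41 counts per library.

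Of the small stress-inducible ER proteins, Sdf2l1 fell, and Creld2, Manf and the larger Hyou1 did not pass the test. Sdf2l1, a cofactor of the chaperone BiP, had 45.9, 58.7 and 44.5 CPM against 62.4, 61.0 and 72.5 CPM (1.32-fold lower, log2 fold change -0.40, SE 0.12, adjusted p = 0.012). Its call was lost without knock-out replicate 1 or 3 or wild-type replicate 3 (adjusted p = 0.055, 0.061 and 0.063). Creld2 had 65.0 ± 6.46 CPM against 56.3 ± 4.59 (adjusted p = 0.10), and Manf, a secreted survival factor, 158 ± 24.9 against 143 ± 11.3 (adjusted p = 0.29). Manf shares 146 exon bases with Dcaf1 on the opposite strand, which had 17370 counts to its 25079. Hyou1, the large chaperone that exchanges nucleotide on BiP, had 318 ± 10.2 CPM against 289 ± 11.5 (adjusted p = 0.11), with no overlap between the groups.

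Wfs1, the ER membrane protein wolframin, which takes part in ER calcium handling, changed most of the 33 genes (chromosome 5, 36966104 to 36989205). It had 91.8, 80.4 and 103.5 CPM in the knock-out and 20.9, 23.3 and 22.8 CPM in the wild type. It rose 4.13-fold (log2 fold change 2.05, SE 0.11, adjusted p = 1.3e-08). It lies on chromosome 5, whose genes had the median of 0.40 given for Psph, so its fitted value was above that of its chromosome. The part of the chromosome shift in the Wfs1 value was not tested.

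The other genes of the pathway were read from lists by role. The counts of each list below stand beside 57.4% of all genes tested called, 30.4% higher and 27.0% lower. A list with shares near these shows nothing particular to its genes. Among 26 tested further targets of Atf4, 14 were higher and 7 lower (median log2 fold change 0.42). They thus leaned the other way from the Atf4 arm, whose median was -0.43, and this difference was not tested. Slc6a9, a glycine transporter, rose to 51.8 ± 3.68 CPM from 14.9 ± 1.52 (adjusted p = 5.4e-08), and Gpt2, an alanine aminotransferase, to 34.7 ± 2.56 CPM from 8.31 ± 1.08 (adjusted p = 7.0e-08). Cth, which makes cysteine from cystathionine, fell to 14.3 ± 1.48 CPM from 37.3 ± 1.11 (adjusted p = 6.0e-07), and the secreted glycoprotein gene Stc2 to 12.4 ± 1.93 CPM from 45.2 ± 9.36 (adjusted p = 9.8e-07). Aldh1l2 and Fgf21, both targets of Atf4, were too low to be tested and had no count in the knock-out.

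Most genes of tRNA charging that passed the test fell. Of 12 synthetases linked to Atf4, 9 fell and 1 rose (median -0.25), led by Gars, at 320 against 515.5 CPM (adjusted p = 9.3e-06), and Yars, at 73.2 against 110 CPM (adjusted p = 2.1e-04), while Cars rose to 137 CPM from 113 (adjusted p = 6.3e-03). With the replicate number as a block, 6 of these 12 fell and 1 rose. Of the 8 other cytosolic synthetases, 5 fell and 0 rose (median -0.36), with Farsb at 104 against 205 CPM (adjusted p = 4.8e-06) and Vars at 369 against 651 CPM (adjusted p = 6.8e-06). The falls thus occurred in synthetases with and without a link to Atf4, and the difference between the 2 lists was not tested.

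Of 14 genes of eIF2 kinases and factors, 3 rose and 2 fell (median 0.00). Impact, an inhibitor of the amino acid sensor GCN2, rose to 39.2 CPM from 15.1 (adjusted p = 8.5e-07), and Eif2ak1, the heme-regulated eIF2 kinase on chromosome 5, to 129.5 CPM from 86.9 (adjusted p = 3.4e-05). Eif2s2, a subunit of eIF2, fell to 100.0 CPM from 174 (adjusted p = 1.2e-06), and Eif2s3x, on chromosome X, fell to 12.2 CPM from 24.5 (adjusted p = 8.1e-05). Its Y-linked counterpart Eif2s3y, which is not in this list, had 83.4, 80.6 and 76.6 CPM in the knock-out and no count in the wild type. The Eif2s3x fall is thus not a fall of both genes together, and the part of sex in it was not tested. The GCN2 gene Eif2ak4 had 28.8 CPM against 33.4 (adjusted p = 0.15). Without genes of chromosomes X, Y, 5 and the mitochondria, 1 of this list rose and 1 fell.

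Among 30 tested further ER chaperones and foldases, 9 rose and 8 fell (median 0.12). Hspa5, the gene of BiP and the classical readout of the response, had 1031, 1034 and 994 CPM in the knock-out against 831, 807 and 856 CPM in the wild type. It rose 1.23-fold (log2 fold change 0.29, SE 0.07, adjusted p = 2.6e-03), without overlap. Hsp90b1 had 1109 ± 30.2 CPM against 989 ± 39.97 (adjusted p = 0.061), Dnajc3 154 ± 6.41 against 138 ± 8.34 (adjusted p = 0.10) and Dnajb9 12.9 ± 2.39 against 8.80 ± 1.87 (adjusted p = 0.028). Among those that fell, Pdia5, an isomerase, had 17.7 ± 2.17 CPM against 53.7 ± 3.86 (adjusted p = 1.6e-07), and Mogs, a glycan-trimming glucosidase, 89.1 ± 9.43 against 161.5 ± 8.31 (adjusted p = 5.5e-06). The strongest rises by adjusted p were Sdf2, the relative of Sdf2l1, at 79.0 CPM against 55.6 (adjusted p = 7.6e-04), and Qsox1, a sulfhydryl oxidase, at 145 CPM against 111 (adjusted p = 1.0e-03).

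Of 24 further genes of ER-associated degradation, 11 rose and 3 fell (median 0.21). The 14 called were a share near the 57.4% of all genes tested. Faf2 rose to 145 CPM from 101 (adjusted p = 1.1e-04), while Fam8a1 had 54.8 CPM against 65.6 (adjusted p = 0.027) and Ube2j1 84.5 against 97.8 (adjusted p = 0.038). The number that rose was 7 without knock-out replicate 1 or wild-type replicate 1, and the number that fell was 0 without knock-out replicate 3, wild-type replicate 1 or wild-type replicate 3, 1 without wild-type replicate 2, and 1 with the replicate number as a block. Of 24 translocon and ER export genes, 9 rose and 2 fell (median 0.08). Sec24d, a coat protein of export vesicles, rose to 58.2 ± 2.36 CPM from 21.97 ± 1.08 (adjusted p = 1.0e-07), and Kdelr3, a receptor that returns ER proteins, to 14.2 ± 0.368 CPM from 3.09 ± 0.266 (adjusted p = 3.8e-07). Sec11c, a signal peptidase subunit, fell to 58.4 ± 2.05 CPM from 108 ± 3.04 (adjusted p = 1.0e-06), and Sec11a to 89.4 CPM from 109 (adjusted p = 9.3e-03). Without knock-out replicate 2, 6 of this list fell, and without knock-out replicate 3, 1 did.

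Among 10 genes of ER-bound factors and their proteases, 3 rose and 3 fell. Creb3l2 rose to 66.2 ± 10.3 CPM from 33.5 ± 2.05 (adjusted p = 2.0e-05), and Creb3l3 had 1.17, 1.68 and 1.74 CPM in the knock-out and no count in the wild type, at least 39.5-fold higher against 3 counts over the pooled libraries. Bhlha15, also known as Mist1, a factor of secretory cells on chromosome 5, had 0.00, 0.00 and 0.420 CPM against 3.58, 3.39 and 4.09 CPM (adjusted p = 2.1e-05), and Creb3l4 fell 3.79-fold (adjusted p = 9.4e-05). Beside these falls, all 8 tested Paneth cell markers also fell, with a summed level of 5.71 to 15.7 CPM against 939 to 1133 CPM. Most of the wild-type sum was Mmp7 (401 CPM) and Reg3g (383 CPM), while Lyz1 had 163 CPM there. Whether each of these genes is limited to Paneth cells here was not tested. The markers other than Mmp7 had almost no count in the knock-out. They passed the low-count filter only through the wild type and could only be called lower. The markers of plasma cells Jchain, Mzb1, Igha and Tnfrsf17 had no count in the knock-out and a mean of at most 0.0335 CPM in the wild type, while Sdc1, the 1 tested marker of that list, rose. Immune markers summed to 23.1 to 23.8 CPM in the knock-out and 3.79 to 6.98 CPM in the wild type, with 3 of 3 tested higher (Ptprc, Csf1r and Cd68) and Cd3e at 0 in all libraries. Ptprc, at 0.434 against 0.0248 CPM, and Csf1r, at 10.9 against 0.605 CPM, passed the low-count filter only through the knock-out. Their calls could thus only be higher, and the 3 of 3 is partly set by the filter. Nearly all of the knock-out sum was Csf1r (10.9 CPM) and Cd68 (11.9 CPM), while the myeloid markers Lyz2, with no count there against 0.217 CPM, and Itgam, at 0.0867 against 0.620 CPM, were too low to be tested. The part of these cell types in the values above was not tested.

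**Figure D4:**
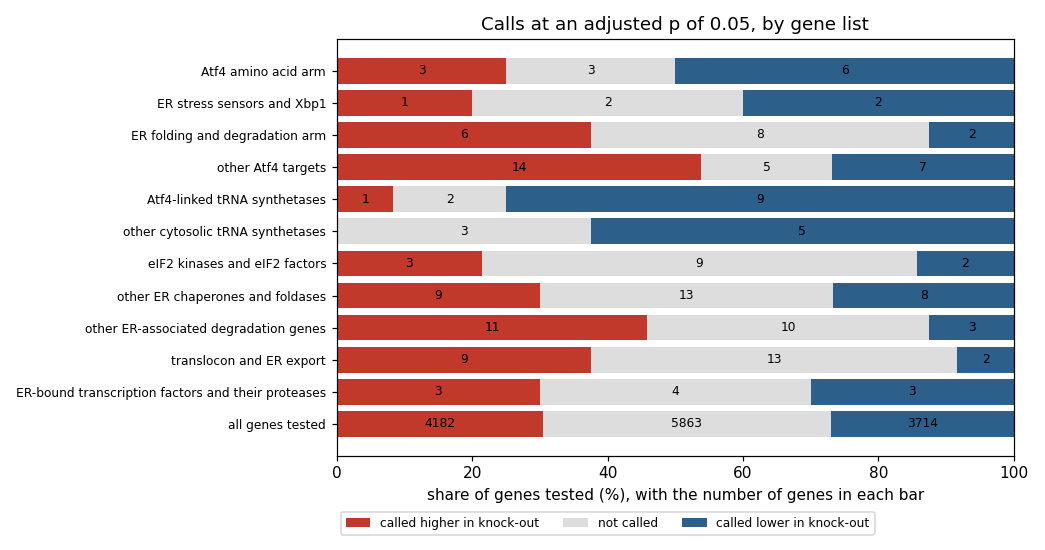
Share of tested genes called higher, called lower and not called at an adjusted p of 0.05 (x axis, percent) for each list, with the number of genes written in each bar. The bottom bar holds all genes tested, with 4182 higher and 3714 lower.

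Within each genotype most Atf4 genes were highest in the same library. Of the 12 genes, 11 were highest in wild-type replicate 3 among the wild-type libraries, and 10 were highest in knock-out replicate 2 among the knock-out libraries, where 36.0% and 41.1% of all genes tested were. The median deviation from the genotype's own mean, in log2 of CPM with 0.5 added, was 0.14 in wild-type replicate 3 and 0.10 in knock-out replicate 2, and -0.08 to -0.05 in the other 4 libraries. The ER arm leaned the same way, with 11 of 16 genes highest in wild-type replicate 3 and 10 of 16 in knock-out replicate 2. The sensors did not, with 1 of 5 genes highest in wild-type replicate 3 and 0 of 5 in knock-out replicate 2. Among the knock-out libraries, 4 of the 5 sensors were highest in replicate 1. Single genes deviated by up to 0.52 (Chac1 in knock-out replicate 2) and 0.51 (Trib3 in wild-type replicate 3). Without knock-out replicate 2, the median of the Atf4 arm was -0.65 with 3 genes higher and 8 lower, the 2 added calls being Chac1 and Psph, and the median of the ER arm was 0.09 in place of 0.16.

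**Figure D5:**
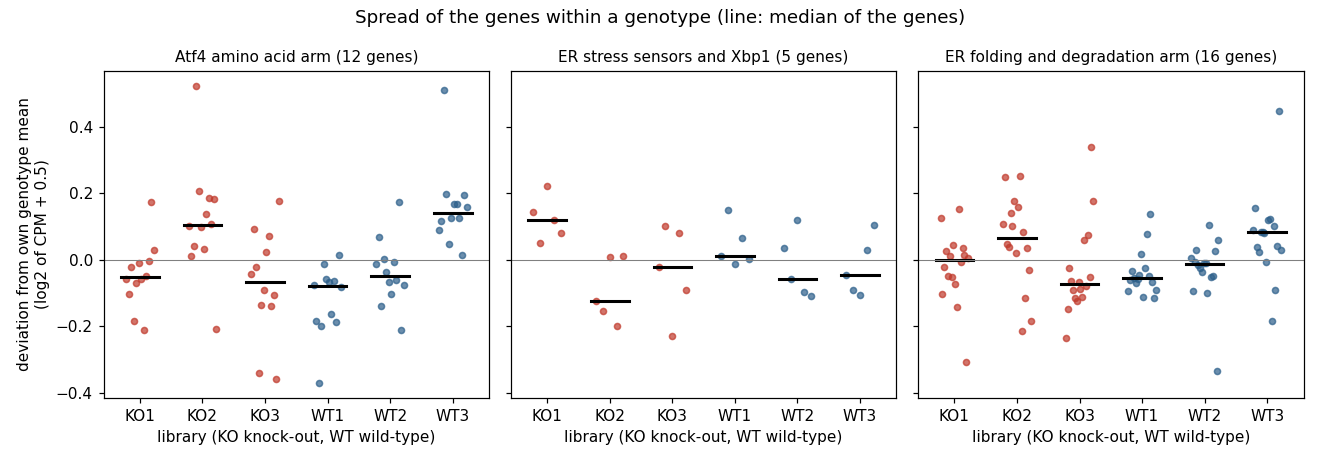
Deviation of each gene in each library from the mean of its own genotype (y axis, log2 of CPM + 0.5), with 1 point per gene and a line at the median, for the Atf4 arm, the sensors and the ER arm. In the Atf4 arm the medians of KO2 (0.10) and WT3 (0.14) lie above those of the other 4 libraries.

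Genes with a promoter element were read against their values. Of the 6 ER genes with ERSE shown above, Canx and Syvn1 rose and Calr, Creld2, Pdia6 and Derl3 did not pass the test, and their median log2 fold change was 0.20. Over all genes with ERSE that could be tested, members included, 9 of 18 rose and 2 fell, with a median of 0.25. Of all genes tested, 30.4% rose and 27.0% fell. Of the 12 outside the 33 genes, 7 rose, namely Hspa5, Ero1b, Acacb, Acnat2, Adcy3, Spats2l and Zfp57. Acacb, Acnat2 and Adcy3 had 1.76, 0.622 and 2.90 CPM in the knock-out against 0.287, 0.0485 and 0.0471 CPM in the wild type. Genes this low in the wild type pass the low-count filter only through the knock-out, so they could only be called higher. The 9 of 18 is thus partly set by the filter and is no result about the element. Ero1b is an ER oxidase whose older symbol is Ero1lb (5.58 CPM against 2.40, adjusted p = 2.3e-03). Hnrnpa3 and Pan2 fell, and Hsp90b1, Dnajc3 and Alg12 did not pass (adjusted p = 0.061, 0.10 and 0.27). Of the 4 members with the C/EBP-ATF element, Asns and Herpud1, which also has ERSE-II, fell, and Chac1 and Trib3 did not pass the test. Over all 281 tested genes with the C/EBP-ATF element, 89 rose and 88 fell, with a median of 0.02, beside the same shares of all genes tested.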

How the data were processed

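Per the labels' protocols, libraries were stranded and polyA-selected. The aligner was STAR and the genome build GRCm38, per the submitters' processing notes. The STAR version, counting program, strand setting, annotation release and treatment of reads with several matches are, in the sources used here, not given; whichever was used, overlapping genes could share reads. The authors deposited whole-number counts per Ensembl gene, which were used as deposited. Symbols, coordinates and union exon lengths came from GENCODE M21, which named 49326 of 49585 identifiers. No pair of libraries agreed within sampling noise, so all 6 were counted.

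The test was edgeR 4.0.16 (R 4.3.3) quasi-likelihood (glmQLFit with legacy = FALSE, glmQLFTest) with TMM scaling, 1 term for genotype and filterByExpr (minimum count 10, minimum total 15), fitted on all 13759 genes that passed. Benjamini-Hochberg adjustment ran over all of them, with a threshold of 0.05. Standard errors are the log2 fold change divided by the square root of F. No p was computed over a list. The fit was first run on simulated counts in which few genes were changed. That run does not test its scaling or error rate where 57.4% of genes are called.

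The members and gene lists were chosen with earlier results of these data known. Named genes are all 33 members, Chuk, the called genes with the 2 smallest adjusted p in each direction per list, and Hspa5, Hsp90b1, Dnajb9 and Dnajc3. The values of 1 gene named by this rule are not reported here. Marker genes, Eif2s3y, Eif2ak4, Aldh1l2, Fgf21, Ero1b and the other genes outside this rule that are named for ERSE were named after their values were seen. The 4 ratios and their test were not planned. The alternatives were DESeq2 1.42.0 (scaling and Wald test), upper-quartile scaling, library size alone, no filter, 1 CPM in 3 libraries, limma 3.58.1 voom, a replicate block, no genes of chromosomes X, Y, 5 and the mitochondria, and leaving out each library. The legacy edgeR fit was added after seeing the data.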

Additional observations from a re-analysis of the deposited data

How the results depend on the processing

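Over 16 alternatives, 22 of the 33 genes kept their direction and their side of the threshold, and 11 changed in some of them; Derl3 was not tested with the filter of 1 CPM in 3 libraries. The count of all genes called ran from 7019 (without genes of chromosomes X, Y, 5 and the mitochondria) to 8899 (without knock-out replicate 2). Leaving out 1 library at a time, the median of the Atf4 arm ran from -0.65 to -0.32 that of the sensors from -0.292 to -0.0429 and that of the ER arm from 0.0944 (without knock-out replicate 2) to 0.23, and the genes called lower numbered 1 to 2 in the sensors and 1 to 2 in the ER arm. In the same runs the further degradation genes numbered 7 to 11 higher and 0 to 4 lower, and translocon genes called lower 1 to 6.

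Leaving out 1 library at a time, the log2 fold changes of the 11 genes ran from 0.58 to 0.79 (Ddit3), -0.50 to 0.19 (Trib3), -0.84 to -0.27 (Chac1), -0.35 to -0.15 (Psph), -0.39 to -0.26 (Ern1), -0.56 to -0.31 (Sdf2l1), -0.0104 to 0.14 (Pdia6), -0.0308 to 0.10 (P4hb), 0.0691 to 0.25 (Calr), -0.0236 to 0.21 (Manf) and 0.21 to 0.37 (Sel1l). The signs of Pdia6, P4hb and Manf turned without knock-out replicate 2 and that of Trib3 without wild-type replicate 3, and none of the 4 passed the test either way. Upper-quartile scaling, which moved the median of all genes to -0.05, gave -0.0065 for P4hb and 0.24 for Sel1l, which lost its call. Calr passed with no filter at 0.17 (adjusted p = 0.037) and without knock-out replicate 3 at 0.25 (adjusted p = 0.045). Without genes of chromosomes X, Y, 5 and the mitochondria, eIF2 genes numbered 1 higher and 1 lower, and Psph and Wfs1 were not tested. The causes were not tested.

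Same-numbered libraries had deviation correlations of 0.108, -0.11 and -0.19, and those with other numbers had -0.177 to 0.269, so no pairing by replicate number was seen. With 3 libraries per genotype, these correlations cannot show whether libraries of a number shared a preparation. With the number as a block, 7432 genes were called, and Sel1l stood at 0.30 and lost its call (adjusted p = 0.055). Of the synthetases linked to Atf4, 6 were lower in place of 9. Of the further degradation genes, 9 were higher in place of 11 and 1 was lower in place of 3. Further ER chaperones numbered 8 higher and 7 lower, translocon genes 8 higher and further Atf4 targets 6 lower.

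Depth limits the low genes: Derl3 had 8 to 41 counts per library. Where leaving out a library left 2 in a group, the test had fewer samples.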
